A study of Mus musculus with 6 samples.

Results

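The pre-B and B cell receptor components described here are 10 listed genes: Ighm, Igll1, Vpreb1, Cd79a, Cd79b, Blnk, Btk, Syk, Lyn and Ms4a1. They were found by gene symbol in the platform annotation of an Affymetrix mouse whole-genome array, whatever their values. Of the 10 genes, 9 had probe sets that carry a single symbol, 24 probe sets in all, out of 45037 probe sets and 18193 named genes. Lyn, a Src family kinase, had no probe set under its symbol and was not analysed here. A further 5 probe sets carry several symbols and were left unnamed.

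Gene expression was measured in Ba/F3, an interleukin-3 dependent mouse haematopoietic line of BALB/c background, labelled as murine leukaemia cells and grown with supernatant of WEHI-3 cells. All samples carried the PAX5-KIDINS220 fusion under a doxycycline-inducible Tet-on retroviral system, and the study asked which pathways the fusion affects. The groups are Dox(+), 3 arrays of cells given 500 ng/mL doxycycline for 24 h, and Dox(-), 3 arrays of the same cells without it. Since no array of doxycycline-treated cells without the fusion was analysed here, effects of the drug and of the fusion cannot be told apart. Separate cultures are not stated for the 3 samples within each group, and the p-values measure only how these arrays scatter, in part perhaps technically. The array codes in the sample titles start with EA20 for 4 arrays (2 Dox(+) and 2 Dox(-)) and with EA15 for 2 arrays (1 of each). These are called the EA20 set and the EA15 set. The labels do not say what the codes stand for. Within the EA20 set the codes of both Dox(+) arrays come before those of both Dox(-) arrays, and doxycycline there cannot be told apart from whatever else follows that order.

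The B cell receptor is a membrane immunoglobulin that binds antigen, held with the signalling pair Ig-alpha (Cd79a) and Ig-beta (Cd79b). At the earlier pre-B stage the mu heavy chain (Ighm) pairs with a surrogate light chain made of Vpreb1 and lambda5 (Igll1) instead of a light chain. When the receptor is engaged, Lyn and then Syk phosphorylate tyrosines of the Cd79 tails and the linker Blnk, and Btk activates phospholipase C gamma. B lineage commitment depends on the transcription factor PAX5, and Cd79a and Blnk are among its known activated targets. KIDINS220, the other partner of the fusion, is a scaffold at the cell membrane that takes part in growth factor and antigen receptor signalling.

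The values are signals, linear brightness per probe set, and every array had the same trimmed mean (500.0). Fold changes and log2 differences are on the scale of log2(signal + 16), which understates changes of dim probe sets. Signals of different probe sets are not on a common scale, so the order of the genes by level is not given. As a rough yardstick for dim signals, 37 probe sets of 22 genes of other organs (such as albumin, insulin and rhodopsin) were read on each array. Their 95th percentile was 102.8, 70.7 and 79.6 on the Dox(+) arrays and 69.4, 75.6 and 104.6 on the Dox(-) arrays. Of the 24 receptor probe sets, 6 lay above it on all 6 arrays, 12 on none and 6 on 1 to 5 arrays. Those above it on all arrays belonged to Btk, Cd79b, Syk (3 probe sets) and Ighm (1). No probe set of Cd79a, Blnk or Ms4a1 was above it on any array, and those of Igll1 and Vpreb1 exceeded it on at most 1.

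The set of markers for the early B lineage gave a like picture of these cells. Of 9 measured markers (Cd24a, Dntt, Ebf1, Il7r, Pax5, Pou2af1, Rag1, Rag2 and Vpreb3), 0 were above the yardstick on all 6 arrays by their brightest probe set. Their summed signal ranged from 171 to 326 on Dox(+) arrays and from 156 to 299 on Dox(-) arrays. The 3 subunits of the interleukin-3 receptor family (Il3ra, Csf2rb and Csf2rb2) were above it on every array, with sums of 37551 to 41044 in the EA20 set and 13600 to 14567 in the EA15 set. Pax5 probe set 1421765_at read 119, 94.5 and 94.2 on Dox(+) arrays and 15.6, 3.76 and 20.3 on Dox(-) arrays. The other Pax5 probe set, 1454401_at, read 51.6, 133 and 48.1 on Dox(+) arrays and 23.9, 92.0 and 81.4 on Dox(-) arrays, which overlapped. Which part of Pax5 each reads is not known here, so neither checks the labels. Kidins220 probe set 1433852_at read 2546, 4243 and 4438 on Dox(+) arrays and 2289, 4154 and 3982 on Dox(-) arrays, a difference of 0.11 (SE 0.06, limma adjusted p 0.60). Its probe sets 1430449_at, 1436607_a_at and 1455762_at differed by 0.18, 0.26 and -0.08 (limma adjusted p 0.54 to 0.97). On each Kidins220 probe set the EA20 arrays lay wholly above the EA15 arrays, as in 21.9% of all probe sets. Which part of Kidins220 each reads is not known here either. The 3' to 5' signal ratio of the Gapdh control, a measure of RNA quality, was 0.656 to 0.688 on Dox(+) arrays and 0.637 to 0.684 on Dox(-) arrays.

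**Figure D1:**
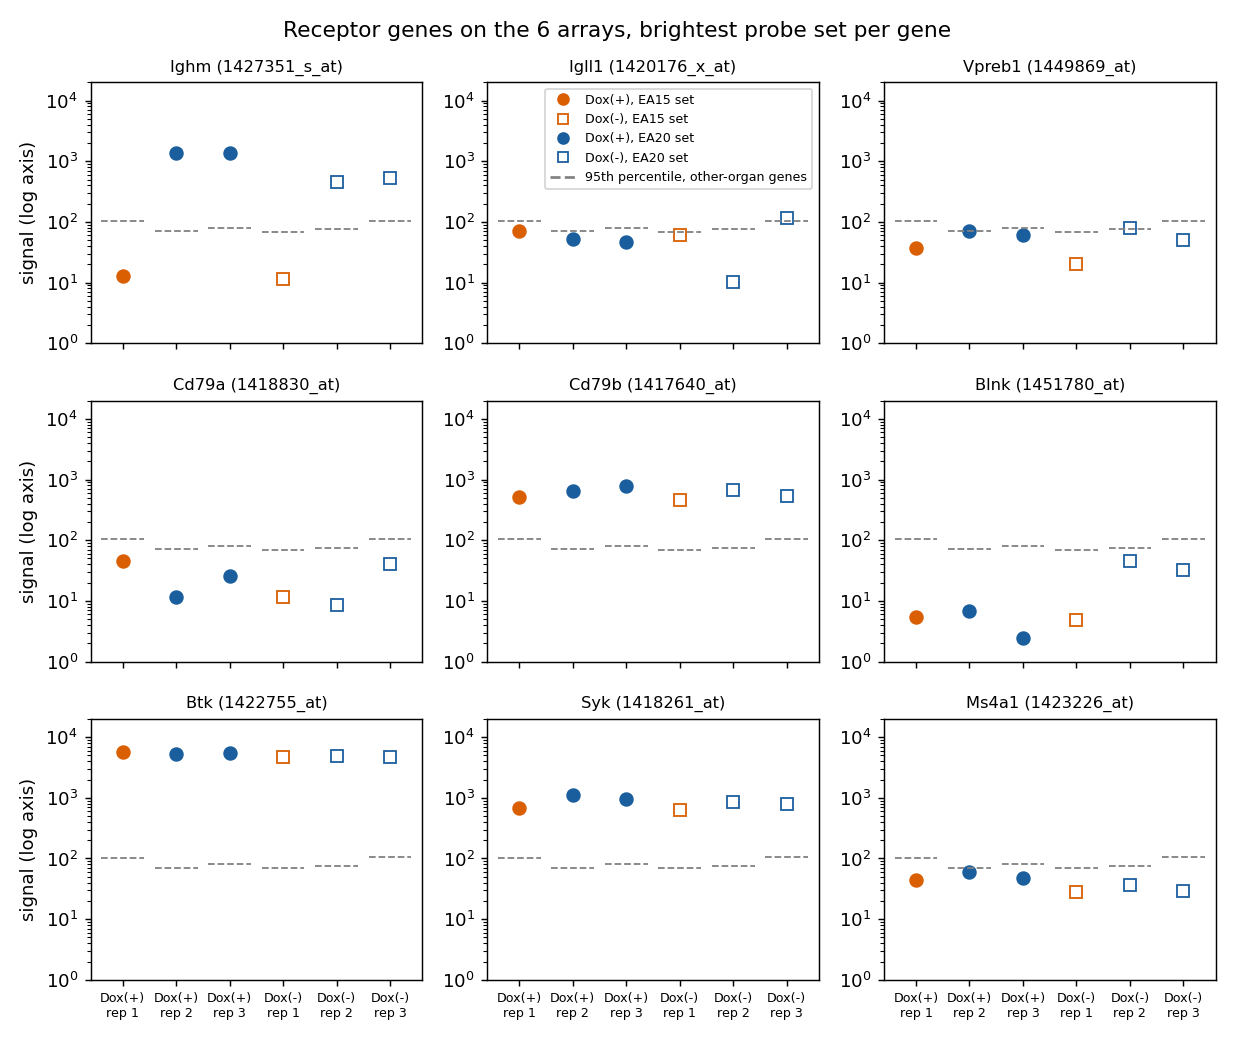
Signal (log axis) of the brightest probe set of each of 9 genes on the 6 arrays. Filled circles are Dox(+) and open squares Dox(-), orange is the EA15 set and blue the EA20 set, and each dashed bar is the 95th percentile of 37 probe sets of other-organ genes on that array. Btk, Cd79b and Syk lie above the dashed bars on every array, Ighm only on the 4 arrays of the EA20 set, and Cd79a, Blnk and Ms4a1 on none.

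Ighm, the mu heavy chain constant region, differed more between the array sets than with doxycycline by probe sets 1427351_s_at and 1427329_a_at. Probe set 1427351_s_at read 1360 and 1385 on the Dox(+) arrays of the EA20 set, against 455 and 534 on its Dox(-) arrays. In the EA15 set it read 12.9 on the Dox(+) and 11.3 on the Dox(-) array. Within the EA20 set both Dox(+) arrays thus lay above both Dox(-) arrays, and in the EA15 set both arrays lay below the yardstick. The second such probe set, 1427329_a_at, read 533 and 965 on the Dox(+) arrays of the EA20 set, against 399 and 404 on its Dox(-) arrays, and 24.0 (Dox(+)) against 11.9 (Dox(-)) in the EA15 set.

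The EA20 set exceeded the EA15 set by 4.90 on the log2 scale for 1427351_s_at (SE 0.26, limma adjusted p 1.6e-06). For 1427329_a_at the difference was 4.05 (SE 0.23, limma adjusted p 2.3e-06). With both EA15 arrays under the yardstick, the size of these differences depends on the added 16. Set against the yardstick of the EA15 arrays in place of their signals, the EA20 arrays were at least 9.74-fold higher for 1427351_s_at and at least 6.35-fold higher for 1427329_a_at (means of log2 signals). Their ranks by p among the 45037 probe sets were 380 and 478. Differences between the sets were common: limma called 11176 probe sets, 24.8% of those tested, 6043 higher and 5133 lower in the EA20 set. With each array centred on its median the split was 4803 higher and 6317 lower. Since the arrays measure bulk RNA, a larger share of cells with the transcript and more of it per cell cannot be told apart. Single markers of other cell types differed between the sets too, in both directions, by the brightest probe set of each. Over all probe sets, 21.9% were wholly higher and 17.7% wholly lower in the EA20 set. Of the mast cell and basophil list (1 of 5 above the yardstick on all arrays) the sum was 623 to 1062 in the EA20 set and 305 to 312 in the EA15 set. Ms4a2 carried it, with a mean of 690 in the EA20 and 171 in the EA15 set, while Fcer1a, Cpa3, Kit and Mcpt8 overlapped between the sets. The T cell list (0 of 4) summed to 391 to 460 in the EA20 set and 144 to 164 in the EA15 set. There Cd3g averaged 318 in the EA20 and 21.4 in the EA15 set, Cd8a was wholly lower in the EA20 set (69.9 against 107), and Cd3e and Cd4 overlapped. The monocyte and granulocyte list (2 of 5) summed to 696 to 813 in the EA20 set and 414 to 509 in the EA15 set. Csf1r, Itgam and Elane were wholly higher and Lyz2 wholly lower in the EA20 set, with Elane under the yardstick on every array, and Mpo overlapped. The plasma cell list (1 of 4, Xbp1) summed to 9103 to 9941 in the EA20 set and 10736 to 12903 in the EA15 set. Xbp1 carried it, with a mean of 9314 in the EA20 and 11722 in the EA15 set, while Jchain, Prdm1 and Sdc1 overlapped. Jchain, the joining chain of secreted IgM, read 18.2 to 30.6 on all arrays. The early B lineage list (0 of 9) summed to 181 to 326 in the EA20 set and 156 to 171 in the EA15 set. The part of these markers, and of what the codes stand for, in the Ighm difference was not tested.

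With doxycycline, 1427351_s_at differed by 0.99 (SE 0.25) when both sets were fitted with the array set as a block, and this did not pass (limma adjusted p 0.26, rank 530 of 45037 probe sets by p). Fitted on the 4 EA20 arrays alone, it rose by 1.45 (SE 0.10, limma adjusted p 0.012), which is 2.73-fold (95% interval 2.32 to 3.21). That was the only one of the 24 receptor probe sets called there, and limma called 0.124% of all probe sets in the same fit, 0.0999% higher and 0.0244% lower. The call was lost when any 1 of the 4 arrays was left out (Dox(+) replicate 2 or 3, Dox(-) replicate 2 or 3), with log2 differences of 1.33 to 1.56. Each such fit has a group of 1 array, so it cannot decide whether the call holds. The call was also lost without the mean-variance trend (limma adjusted p 0.43), where limma called 0 of all probe sets. In the EA15 set, with 1 array a group, the log2 ratio was 0.08. The test of the difference between the sets gave 1.37 (limma unadjusted p 0.0015, adjusted p 0.65), so a difference in response between the sets was not called. Without any block for the array set the limma adjusted p was 1.0. Probe set 1427329_a_at differed by 0.71 (SE 0.22, limma adjusted p 0.34) with the block, by 0.81 in the EA20 set (limma adjusted p 0.30) and by 0.52 in the EA15 set.

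The other 9 Ighm probe sets did not share this pattern. Their signals ran from 1.56 to 219, and apart from 1427870_x_at none exceeded 102.5 on any array. Between the sets they differed by -0.40 to 0.47 (lowest limma adjusted p 0.19), and with doxycycline by -0.69 to 0.84 (lowest limma adjusted p 0.51, array set as block), 6 of 9 positive. The probe set 1427870_x_at read 219, 185 and 161 on Dox(+) arrays and 212, 172 and 127 on Dox(-) arrays, with groups that overlapped. It was the only Ighm probe set above the yardstick on all 6 arrays. Its EA20 arrays lay wholly below its EA15 arrays (219 and 212), as in 17.7% of all probe sets. That difference of -0.40 (SE 0.19) did not pass (limma adjusted p 0.19). Affymetrix uses the endings _s_at and _x_at for probe sets whose probes match more than 1 transcript, and heavy chain genes share much sequence. Mu constant exons are also transcribed from unrearranged loci, and which Ighm transcripts these probe sets read is not known here.

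**Figure D2:**
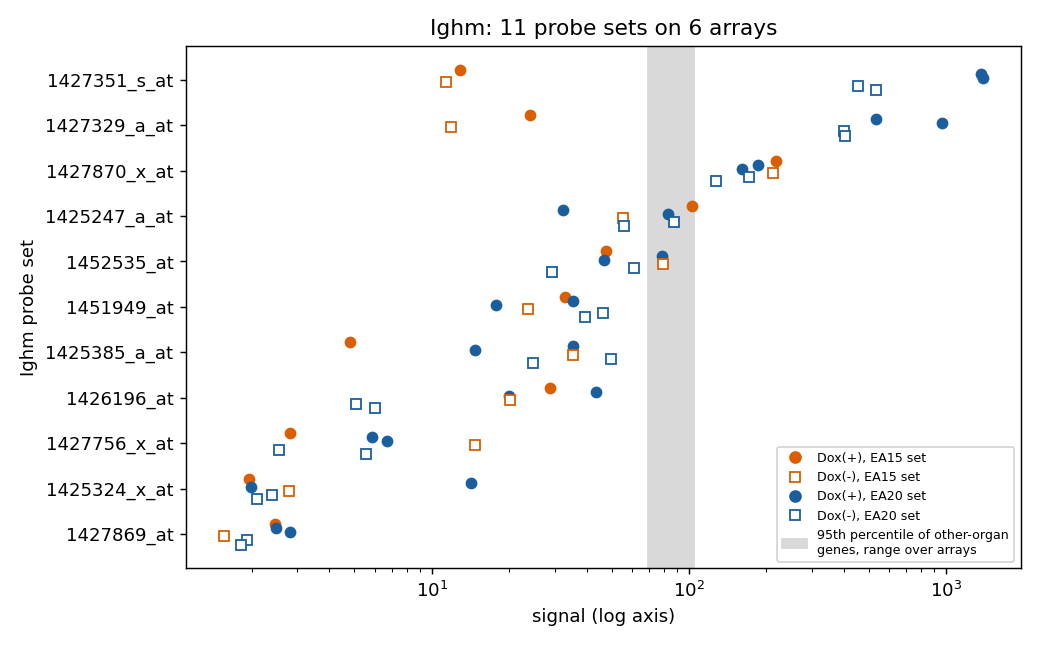
Signals (log axis) of all 11 Ighm probe sets, 1 row each, on the 6 arrays, with symbols as named in the legend. The grey band is the range over arrays of the 95th percentile of the other-organ genes (69.4 to 104.6). Probe sets 1427351_s_at and 1427329_a_at alone show the EA20 arrays above the band and the EA15 arrays below it.

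The surrogate light chain genes were dim. Vpreb1 probe set 1449869_at read 37.6, 69.7 and 60.1 on Dox(+) arrays and 20.2, 78.0 and 51.0 on Dox(-) arrays, and the groups overlapped. Its 4 EA20 arrays all lay above its 2 EA15 arrays, by 0.86 (SE 0.36), but this did not pass (limma adjusted p 0.13). Igll1 probe set 1420176_x_at read 71.6, 51.5 and 46.4 on Dox(+) arrays and 60.9, 10.1 and 118 on Dox(-) arrays, so the Dox(-) values enclosed the Dox(+) ones. Igll1 probe set 1420177_at read 24.3, 18.9 and 23.5 on Dox(+) arrays and 26.4, 2.79 and 6.20 on Dox(-) arrays, which overlapped. Doxycycline differences were 0.20 (SE 0.34) for Vpreb1 and 0.15 (SE 0.55) and 0.55 (SE 0.33) for Igll1, with limma adjusted p of 0.66 to 0.96.

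Of the signalling pair of the receptor, Cd79b was above the yardstick on every array and Cd79a on none. Cd79a (Ig-alpha) probe set 1418830_at read 45.6, 11.8 and 25.3 on Dox(+) arrays and 11.7, 8.57 and 40.3 on Dox(-) arrays, all under the yardstick and overlapping. Its doxycycline difference was 0.29 (95% interval -0.73 to 1.32, limma adjusted p 0.89), with 1.15 in the EA15 set and -0.14 in the EA20 set. Cd79b (Ig-beta) probe set 1417640_at read 517, 651 and 777 on Dox(+) arrays and 467, 662 and 531 on Dox(-) arrays. Its means were 648 ± 130 on Dox(+) and 554 ± 99.4 on Dox(-) arrays (SD, n = 3 each). It differed by 0.22 (SE 0.11) with doxycycline (limma adjusted p 0.59). Each EA20 array exceeded both EA15 arrays for Cd79b, with a difference of 0.39 (SE 0.12, limma adjusted p 0.037). That call was lost with quantile normalization (0.29, limma adjusted p 0.14), with median centring (0.27, 0.17), and with limma adjusted p of 0.099 to 0.28 without Dox(+) replicate 1 or 3 or Dox(-) replicate 1 or 2. It was also lost without the mean-variance trend (0.18) and with the array set as the only term (0.077).

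Blnk, the linker that joins Syk to its downstream enzymes, had the most negative doxycycline difference of the 24 probe sets. Probe set 1451780_at read 6.72 and 2.40 on the Dox(+) arrays of the EA20 set, against 45.5 and 32.8 on its Dox(-) arrays. In the EA15 set it read 5.39 on the Dox(+) and 4.88 on the Dox(-) array. The EA20 Dox(-) arrays were thus the high ones, and all 6 values lay under the yardstick. The difference was -0.94 (SE 0.37, limma adjusted p 0.47) with the block, -1.42 (SE 0.40, limma adjusted p 0.27) in the EA20 set and 0.04 in the EA15 set. The difference between the sets in response was -1.46 (limma unadjusted p 0.048, adjusted p 0.83). Blnk and Cd79a were under the yardstick on Dox(+) and Dox(-) arrays alike.

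The promoters of Cd79a, Blnk and Syk are shown because Cd79a and Blnk are known PAX5 targets whose probe sets stayed dim on Dox(+) arrays, while Syk was bright throughout. The RefSeq table of promoters (GRCm38.p6, 250 bases before to 50 after a transcript start) held 7 entries for 6 of the 10 genes. Each window was searched on both strands for letters of binding motifs: ATTTGCAT (octamer, OCT factors), CAGGTG (E-box, E proteins), AGGAAGT (ETS factors), the EBF1 motif (TCCC and GGGA with 2 bases between) and GCGTGAC (part of the PAX5 motif). Capitals mark matches, no 2 matches overlapped, and the sequences read 5′ to 3′ on the gene's strand.
Cd79a chr7:24897247-24897546 (+): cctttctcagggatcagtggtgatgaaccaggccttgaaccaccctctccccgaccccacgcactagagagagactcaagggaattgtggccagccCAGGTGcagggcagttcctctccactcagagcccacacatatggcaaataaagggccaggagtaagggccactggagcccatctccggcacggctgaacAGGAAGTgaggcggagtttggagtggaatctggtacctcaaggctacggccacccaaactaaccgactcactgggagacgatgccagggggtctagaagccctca
Blnk chr19:40994172-40994471 (-): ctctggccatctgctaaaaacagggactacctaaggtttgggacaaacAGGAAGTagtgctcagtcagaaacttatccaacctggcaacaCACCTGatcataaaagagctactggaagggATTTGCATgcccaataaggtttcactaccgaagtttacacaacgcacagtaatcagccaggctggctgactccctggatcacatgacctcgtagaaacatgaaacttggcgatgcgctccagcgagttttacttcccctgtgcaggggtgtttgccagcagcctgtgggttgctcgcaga
Syk, second start, chr13:52596632-52596931 (+): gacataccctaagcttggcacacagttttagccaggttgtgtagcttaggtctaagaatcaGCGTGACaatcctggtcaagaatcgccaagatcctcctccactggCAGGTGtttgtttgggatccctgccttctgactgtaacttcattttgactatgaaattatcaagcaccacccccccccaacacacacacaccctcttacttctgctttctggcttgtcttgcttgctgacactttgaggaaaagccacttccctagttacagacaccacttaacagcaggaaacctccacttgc
The E-box was found in 6 of the 7 windows (all but that of Btk), against 20.2% of 32851 promoter windows of the same length. The ETS letters were in the windows of Cd79a and Blnk (9.35% of all windows), the octamer in that of Blnk (1.74%) and the PAX5 letters in that of the second Syk start (2.09%). The EBF1 letters were in none of the 7 (0.904% of all). Of the Syk windows only that of the second start is printed, the one with the PAX5 letters. The window of the first start (chr13:52583187-52583486) held the E-box alone. Which Syk start these cells use is not known here. A match describes these letters and is not a binding site, and their absence from a window says nothing about the factor.

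Syk and Btk, the kinases that act after receptor engagement, were bright on every array. Btk probe set 1422755_at read 5647, 5221 and 5454 on Dox(+) arrays and 4742, 4896 and 4759 on Dox(-) arrays. Every Dox(+) array lay above every Dox(-) array, with means of 5441 ± 213 and 4799 ± 84.2 (SD, n = 3 each). The difference was 1.13-fold (95% interval 1.03 to 1.25), with log2 values of 0.14 in the EA20 and 0.25 in the EA15 set, and it did not pass (0.18, SE 0.06, limma adjusted p 0.40). Between the array sets Btk differed by -0.03 (SE 0.06, limma adjusted p 0.84).

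Syk was read by 4 probe sets. Probe set 1418261_at read 1093 and 949 on the Dox(+) and 846 and 776 on the Dox(-) arrays of the EA20 set, and 687 on the Dox(+) and 627 on the Dox(-) array of the EA15 set. Within each set the Dox(+) arrays were thus the higher ones, while the groups overlapped across sets. The doxycycline differences of 1418261_at, 1418262_at and 1425797_a_at were 0.26 (SE 0.09), 0.18 (SE 0.09) and 0.27 (SE 0.11), or 1.20-, 1.13- and 1.21-fold, with limma adjusted p of 0.40 to 0.60. Their signs were the same in the EA20 set (0.32, 0.19 and 0.30) and the EA15 set (0.13, 0.15 and 0.22). The fourth probe set, 1457239_at, was under the yardstick on all arrays, with 25.2, 55.7 and 29.6 on Dox(+) and 8.28, 4.88 and 10.4 on Dox(-) arrays. It had the largest positive doxycycline difference of the 24, 1.11 (SE 0.35, limma adjusted p 0.36), and its groups did not overlap.

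Between the array sets the 3 brighter Syk probe sets were higher in the EA20 set, by 0.46 (SE 0.09), 1.05 (SE 0.10) and 1.24 (SE 0.12), with limma adjusted p of 0.0051, 4.2e-05 and 3.8e-05. For 1425797_a_at the EA20 arrays read 476 and 468 (Dox(+)) and 370 and 393 (Dox(-)), and the EA15 arrays 186 (Dox(+)) and 157 (Dox(-)). The 3 probe sets differed in the size of this gap, from 1.37- to 2.36-fold. The call of 1418261_at was lost without Dox(+) replicate 1 (0.36, limma adjusted p 0.11) and without the mean-variance trend (0.089).

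Ms4a1 encodes CD20, a surface protein of B cells. Its probe set 1423226_at read 44.7, 59.95 and 47.2 on Dox(+) arrays and 28.3, 36.4 and 29.5 on Dox(-) arrays. The groups did not overlap, but every value was under the yardstick, and the difference of 0.49 (SE 0.34) did not pass (limma adjusted p 0.71). The second probe set, 1450912_at, read 1.51, 7.78 and 28.3 on Dox(+) arrays and 15.4, 16.6 and 8.65 on Dox(-) arrays, with a difference of -0.15 (SE 0.36).

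Over the 24 probe sets with the array set as a block, 0 were called with doxycycline, where limma called 0.0866% of all probe sets (0.0577% higher and 0.0289% lower). At an unadjusted p under 0.05 limma held 8 of the 24, against 9.44% of all probe sets. Without the block limma called 0 of the 24 and 0 of all probe sets, with 2 of the 24 and 2.98% of all at an unadjusted p under 0.05. In the EA20 set alone the unadjusted share was 8 of 24 against 10.8% of all. The 8 with the block were Btk, Blnk, 3 probe sets of Syk and 3 of Ighm. Positive differences were seen in 19 of 24, with a median of 0.19, against 48.6% positive and a median of -0.01 over all probe sets. The Dox(+) arrays lay wholly above the Dox(-) arrays in 4 of 24 (Btk, Syk 1457239_at, Ms4a1 1423226_at and Ighm 1427869_at, the last at signals of 1.56 to 2.80) and wholly below in 0. Over all probe sets the shares were 3.75% and 3.99%. Of those 4, Btk alone lay above the yardstick. Probe sets of 1 gene are not independent, and 11 of the 24 belong to Ighm. Doxycycline differences had the same sign in the 2 sets for 15 of 24 probe sets, against 53.2% of all probe sets. The test of the difference between the sets called 0 of the 24 and 0 of all probe sets, with 2 of the 24 (Ighm 1427351_s_at and Blnk) and 5.99% of all at an unadjusted limma p under 0.05.

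Between the sets limma called 6 of the 24 (25.0%), all higher in the EA20 set: 2 of Ighm, 3 of Syk and that of Cd79b. This share is close to the 24.8% called over all probe sets. With 13.4% of all probe sets called higher and 11.4% lower, none of the 24 was called lower. At an unadjusted limma p under 0.05 there were 7 of 24, against 32.3% of all. The EA20 arrays lay wholly above the EA15 arrays in 7 of 24 and wholly below in 2, against 21.9% and 17.7% of all probe sets.

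**Figure D3:**
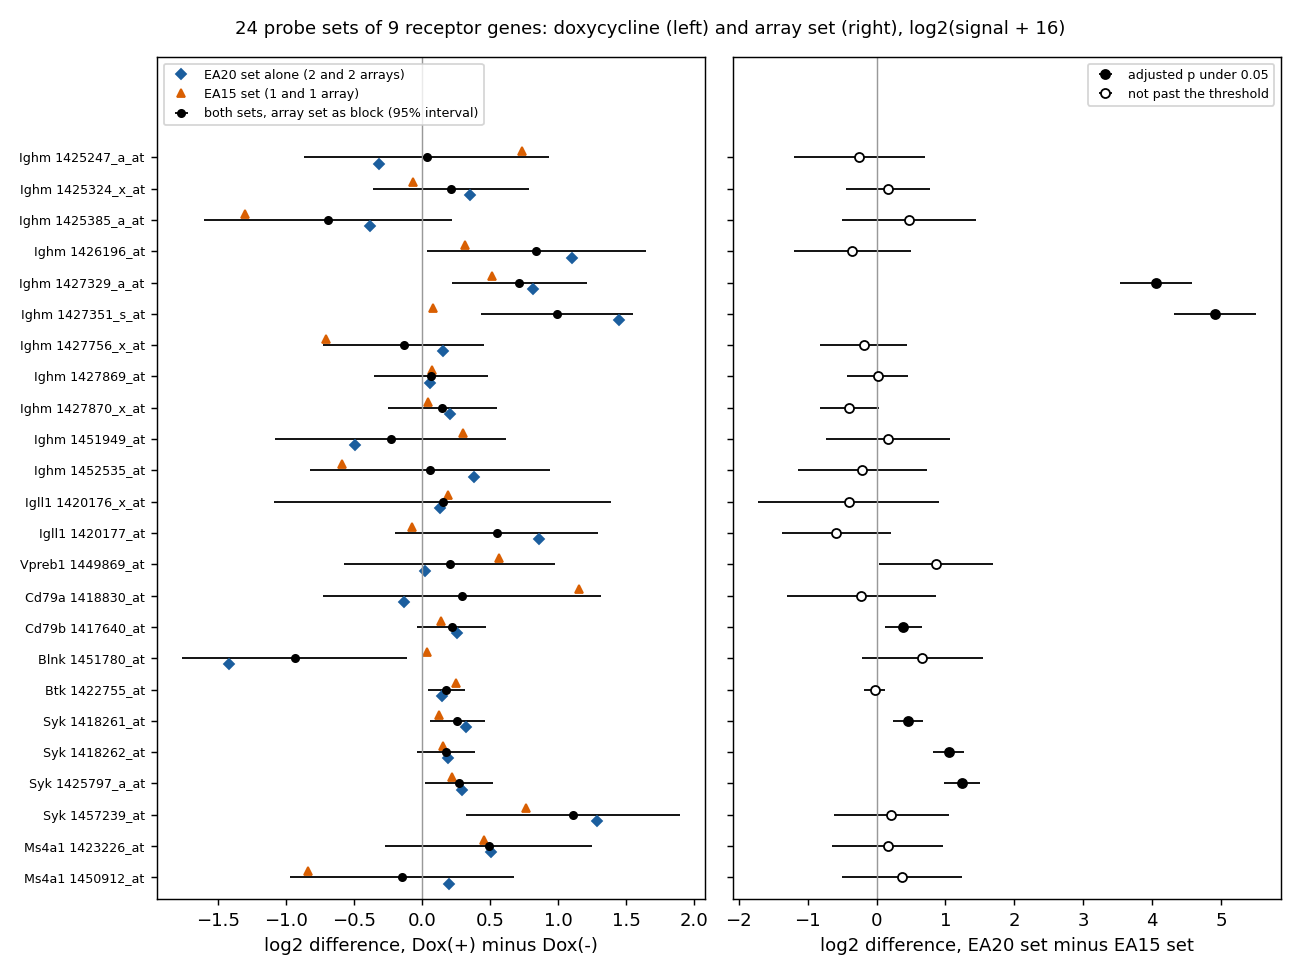
Log2 differences of the 24 probe sets, grouped by gene. Left, Dox(+) minus Dox(-): black points with 95% intervals are the fit of both sets with the array set as a block, blue diamonds the EA20 set alone and orange triangles the EA15 set (1 array a group). Right, EA20 minus EA15 with 95% intervals, filled where the limma adjusted p was under 0.05: the 2 Ighm probe sets at 4.05 and 4.90 stand far to the right of the other 22.

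The genes whose pattern over the 6 arrays was most like Ighm 1427351_s_at were Zfand3, Ctage5, Rab17, Dram2 and Wipf1, each with a Pearson r of 0.999 over 6 arrays. The arrays share the set difference, and 1425 of 11537 genes ranked had an r of at least 0.95. Wipf1, a partner of the actin regulator WASP, read 7375 and 7332 (Dox(+)) and 5932 and 5776 (Dox(-)) in the EA20 set, and 2867 (Dox(+)) and 2849 (Dox(-)) in the EA15 set. For Cd79a the closest were Zfp451, Nab2, Madcam1, Ntn1 and Pla2g2e, with r of 0.957 to 0.970, over signals of Cd79a that never passed the yardstick.

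Other genes of the pathway were read from a list of 56, of which 46 were measured by 108 probe sets. With doxycycline and the array set as a block, 1 of the 108 rose and 0 fell (limma p adjusted over all 45037 probe sets, of which 0.0866% were called), and 58 of 108 were positive (median 0.03). The one that rose was that of Sla (1420818_at), the Src-like adaptor that dampens antigen receptor signalling. It read 1135 and 1307 on Dox(+) and 757 and 699 on Dox(-) arrays of the EA20 set, and 676 on the Dox(+) and 286 on the Dox(-) array of the EA15 set. The difference was 0.88 (SE 0.11, limma adjusted p 0.035), and the second Sla probe set 1420819_at differed by 0.83 (SE 0.13, limma adjusted p 0.076). The Sla call was lost when any 1 of the 6 arrays was left out, with log2 differences of 0.73 to 0.99 and limma adjusted p of 0.074 to 0.26. It was also lost in the EA20 set alone (limma adjusted p 0.061) and with a pseudocount of 64 (0.080). Without the trend (0.56) and without the block (1.0) it was lost too. Leaving out any EA20 array, the trend or the block, limma called 0 of all probe sets, so no call could be kept. Probe set 1420819_at passed with a pseudocount of 1 (limma adjusted p 0.034), a filter at the 40th percentile of mean signal (0.023) and a robust prior (0.049). In the EA20 set alone 1420818_at passed with a pseudocount of 1 (0.022) and with that filter (0.012). With the filter 1420819_at passed there too (0.040).

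Among inhibitors, Dok3, an adaptor that recruits phosphatases, was at 0.53 (SE 0.09, limma adjusted p 0.098) and the phosphatase gene Ptpn22 at 0.25 (SE 0.14). Of receptor chains and coreceptors (7 of 13 genes measured, 13 probe sets, 5 positive, median -0.27), the inhibitory Fc receptor Fcgr2b was at -0.57 (SE 0.13, limma adjusted p 0.20). Several of these 13 probe sets are of Fcgr2b, and the median is itself the value of Fcgr2b 1435476_a_at, so it does not describe the group gene by gene. In the same group the coreceptor Cd72 was at -0.68 (SE 0.17, limma adjusted p 0.26) and the phosphatase CD45 (Ptprc) at 0.14 (SE 0.06). Cd72 read 189, 379 and 408 on Dox(+) arrays and 478, 516 and 517 on Dox(-) arrays, which did not overlap. Of the 108 pathway probe sets, 3 had Dox(+) arrays wholly above and 3 wholly below the Dox(-) arrays. Over all probe sets these shares were 3.75% and 3.99%. Of kinases and adaptors (24 probe sets, 13 positive, median 0.00), Lat2, an adaptor of B and mast cells, was at -0.32 (SE 0.06, limma adjusted p 0.14). Grb2 was at 0.29 (SE 0.06) and Pik3ap1, the adaptor BCAP, at -0.30 (SE 0.09). Of downstream effectors (49 probe sets, 24 positive, median -0.01), the protein kinase C gene Prkcd was at 0.33 (SE 0.07) and the GTPase gene Rac2 at 0.14 (SE 0.07). Prkcb 1443144_at was at 0.77 (SE 0.34), at signals of 1.02 to 29.0 under the yardstick. Another Prkcb probe set, 1460419_a_at, read 14.3, 6.49 and 6.41 on Dox(+) arrays and 17.6, 20.8 and 20.9 on Dox(-) arrays, wholly lower and under the yardstick as well. None of the genes named in this paragraph passed with doxycycline in the main fit. With a filter at the 40th percentile of mean signal, Dok3 passed (0.53, limma adjusted p 0.045). The kinase gene Tec (1460204_at) was at 0.25 (SE 0.15) with the block, 0.53 in the EA20 set (limma adjusted p 0.061) and -0.31 in the EA15 set. In the EA20 set alone it passed with a pseudocount of 1 (limma adjusted p 0.030), with that filter (0.018) and with the brightest probe set per gene (0.035).

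Between the array sets 35 of the 108 pathway probe sets were higher and 9 lower in the EA20 set, 40.7% against 24.8% over all probe sets. The share over all includes dim probe sets: with a filter at the 40th percentile of mean signal, limma called 12101 of 27022. The part of signal level in the gap was not tested, and probe sets of 1 gene are not independent. Those higher included Fcgr2b (1435477_s_at, 2.37), Lat2 (1.78), the adaptors Dapp1 (1.59 at 1421937_at) and Pik3ap1 (1.40 at 1429831_at), Prkcd (1.44 at 1422847_a_at), Ptprc (1.11) and the lipid phosphatase Inpp5d (1.12 at 1418110_a_at), with limma adjusted p of at most 6.9e-06. Those lower were of Cd81, Csk, Fyn, Grb2, Lcp2, Nfatc1, Pag1 and 2 probe sets of the phosphoinositide 3-kinase subunit Pik3cd, by -0.25 to -0.78. With the brightest probe set per gene, Pik3cd 1453281_at was not tested, being dimmer than 1443798_at. Of these genes, Fyn, Grb2, Lcp2, Pag1 and Pik3cd also had other probe sets, which were not called between the sets. The calls of Grb2 1449111_a_at and of the 2 Pik3cd probe sets called lower held in every alternative run that tested them. That of Pag1 (limma adjusted p 0.048) was lost without any 1 of the 6 arrays. Those of Cd81, Lcp2 and Nfatc1 1417621_at were each lost without 4 of the 6 arrays in turn, and that of Fyn without Dox(-) replicate 1. Without the mean-variance trend the calls of Csk, Cd81, Fyn, Lcp2, Nfatc1 1417621_at and Pag1 were lost. Nfatc1 was mixed, with 1417621_at lower (-0.40) and 1428479_at higher (0.73).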

How the data were processed

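Signal intensities per probe set, 1 column per array, were deposited by the authors on a linear scale. Affymetrix Expression Console was the software, per the submitters' processing notes, with no algorithm or version stated in what was used here. Judged from the values, the authors scaled all arrays to a common mean after trimming 2% at each end, which hides any change in total mRNA. No detection calls were used. The number of arrays limits the precision.

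Of 45101 probe sets, 64 controls were left out. Platform annotation gave 1 symbol to 34945, several to 932 and none to 9160, and updating by Entrez identifier changed 0. Signals were transformed to log2(signal + 16). All 45037 probe sets were then fitted together by lmFit and eBayes (mean-variance trend) of limma 3.58.1, R 4.3.3, with doxycycline and array set as terms. Tests were two-sided, and calls needed a Benjamini-Hochberg adjusted p under 0.05. The array set was read from the start of the array code in the sample titles. The same fit was run on the EA20 set alone, without the block, and with an interaction. Only the doxycycline term of the fit with the array set as a block was tried on simulated data, and the other fits were not.

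The genes and lists were chosen with earlier results of these data known. Pathway genes were named where called in a fit (between array sets only some are printed), and otherwise the 3 with the smallest p per role by the brightest probe set. Genes most like Ighm and Cd79a were the 5 with the highest Pearson r, by the brightest probe set at or above the 40th percentile of mean signal. Alternatives were quantile normalization, median centring, pseudocounts of 1 and 64, a filter at the 40th percentile of mean signal, no trend, a robust prior, array weights, the brightest probe set per gene and leaving out each array. Those of the interaction were added after seeing the data. Replicate numbers follow the order of the samples and pair nothing.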

Additional observations from a re-analysis of the deposited data

How the results depend on the processing

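With doxycycline and the array set as a block, the count of receptor probe sets called was 0, and 1 (Ighm 1427351_s_at) in the EA20 set alone. Leaving out 1 array gave 0 to 1: the 1 came without either EA15 array, where the block absorbs the one left. In the EA20 set the main count of 1 became 0 without the trend, and leaving out each array gave 0 throughout. Between the sets the count was 6, and 3 with the brightest probe set per gene, where 9 probe sets were tested. Over all probe sets, the 39 doxycycline calls became 62 and 7 with pseudocounts of 1 and 64, 110 with the filter, 0 without the trend or without the block, and 0 to 37 without 1 array. The 56 calls of the EA20 set became 181, 7, 367, 0 and 95 with those pseudocounts, the filter, no trend and a robust prior, and 0 without any 1 array. The 11176 calls between the sets became 7392 without the trend and 6107 with 1 probe set per gene. The interaction gave 0 calls, and 4 with a pseudocount of 1 and 11 with the filter; it was not run without either EA15 array, where it cannot be estimated. Median centring moved the median difference between the sets from 0.05 to -0.07. Among the receptor and named pathway probe sets, no called value changed sign in the settings run. Why calls were lost was not tested, other than by the fewer arrays or probe sets in those fits. Dim signals, and 1 array a group in the EA15 set, limit what can be seen of Cd79a, Blnk, Igll1, Vpreb1 and Ms4a1. No paired analysis was possible because the labels give no replicate numbers.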
